A study of Mus musculus with 16 samples.

Results

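Poly(A) RNA of the ileum was compared between 4 male Bcl6LKO mice (LKO), which lack the transcriptional repressor BCL6 in hepatocytes, and 4 male Bcl6fl/fl control mice (WT). These are the 8 male libraries of a set of 16, chosen by the sex, the genotype and the replicate number in the sample titles. All animals were C57BL/6 and carried loxP-flanked Bcl6 (Bcl6 fl/fl). The LKO animals also carried Cre recombinase driven by the albumin promoter (Alb-cre), which is active in hepatocytes, and the WT animals carried no Cre, so deletion of hepatic Bcl6 and presence of Cre cannot be told apart here. The ages of these animals were not given in the sources used here, and the methods state ad libitum feeding or a short fast without saying which applied to them. The tissue was a short rinsed piece of ileum next to the caecum, and only hepatocytes are the target of this Cre. The number in the title was lower for each male WT sample than for any male LKO sample, so a step in that order cannot be told apart from genotype.

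BCL6 represses transcription through corepressors and is best known from germinal centre B cells, while in the liver it restrains programmes of lipid metabolism. The ileum is tied to the liver by the bile acids that hepatocytes secrete: enterocytes take them up again, the nuclear receptor FXR senses them, and the hormone FGF15 carries the signal back to the liver. The ileal crypt also holds Paneth cells, secretory cells that release lysozyme, alpha-defensins and lectins against microbes, beside the stem cells that renew the epithelium. RNA of a whole piece of ileum mixes all of these cells, so fewer cells of a type and less RNA per cell cannot be told apart.

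Each male library held between 15739601 and 20467119 counts in genes. Levels are given in CPM, the counts expected in a library of 1000000 counts, after scaling by the trimmed mean of M-values, in the order of replicates 1 to 4, and a count of 0 still allows, by counting error alone, up to 3 counts or 0.147 to 0.191 CPM. Of 24940 genes in the table, 15169 had enough counts to be tested with the quasi-likelihood test of edgeR. A gene was called at an adjusted p below 0.05. The titles name separate samples but not how the animals were housed or littered, so the p-values measure the spread between these samples. The label of the tissue was checked against its markers. All 15 enterocyte markers were tested, and 0 were called by edgeR (0.0527% of all genes) or DESeq2 (0.415%). At an unadjusted edgeR p below 0.05, 1 was higher in LKO (3.01% of all genes) and 0 lower (2.28%). The 15 markers summed to 22429 to 24635 CPM in the WT libraries and 23731 to 24787 CPM in the LKO libraries. Slc10a2, the ileal bile acid uptake carrier, stood at 769.9, 678, 549 and 554 CPM in WT and 615, 549, 806 and 468 CPM in LKO. The 7 genes of the ileal region, Slc10a2 among them, had a median log2 fold change (LKO over WT) of 0.28, running from -0.48 to 2.69. Of these 0 were called by edgeR and 1 by DESeq2 (0.415% of all genes). At an unadjusted edgeR p below 0.05, 4 were higher (3.01%) and 1 lower (2.28%). The ileal list summed to 4180 to 5908 CPM in the WT libraries and 5689 to 6228 CPM in the LKO libraries. Of 7 genes of the proximal small intestine 5 were tested. The list summed to 82.97 to 105 CPM in the WT libraries and 84.1 to 114 CPM in the LKO libraries. Its members Lct and Pdx1 reached at most 7 and 3 counts in any male library. Of the liver genes, Cyp7a1 had 0 counts in all 8 libraries and the 8 hepatocyte markers summed to at most 5.29 CPM. Bcl6 itself, which is not deleted in the intestine by this Cre, stood at 13.8, 17.5, 15.2 and 15.6 CPM in WT and 18.02, 21.5, 16.97 and 17.8 CPM in LKO. The log2 fold change of Bcl6 was 0.26 (SE 0.11, adjusted p 0.879 by edgeR), and this level in the intestine checks nothing about the deletion in the liver.

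Single pieces of tissue differed in which other cells they held, and these values stand beside the results they touch. The B cell and follicle markers summed to 44.1, 216, 54.1 and 51.4 CPM in WT and to 48.7, 51.96, 46.5 and 52.2 CPM in LKO. WT replicate 2 stood far above the other 7 libraries. The caecum and colon list followed the carbonic anhydrase gene Car1, which stood at 0.694, 5.803, 299 and 522 CPM in WT and 0.844, 1136, 9.004 and 6.06 CPM in LKO, with LKO replicate 2 and WT replicates 3 and 4 far above the rest. MHC class II genes summed to 4676, 5363, 5628 and 4927 CPM in WT and 5357, 5200.4, 2646 and 5158 CPM in LKO, with LKO replicate 3 alone below the rest. The adipocyte list was highest in WT replicate 4, at 575 CPM against at most 312 CPM in the other 7 libraries.

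**Figure D1:**
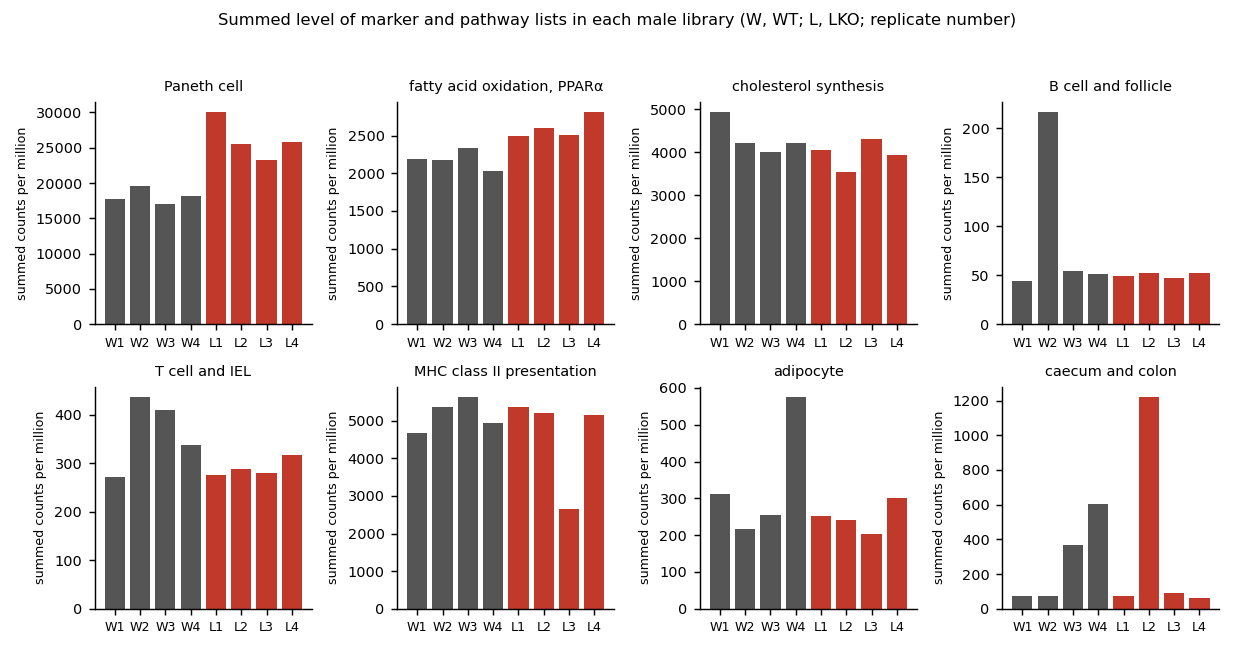
Summed CPM (y axis) of 8 gene lists in each male library (x axis; W, WT and L, LKO, with the replicate number), bars starting at 0. The Paneth cell sums of all LKO libraries lie above all WT libraries, while the B cell, MHC class II and adipocyte sums are each set apart by 1 library (WT replicate 2, LKO replicate 3 and WT replicate 4). The caecum and colon sum is high in LKO replicate 2 and in WT replicates 3 and 4.

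Over the 15169 genes tested, 8 were called, which is 0.0527% of the genes, and all 8 were higher in LKO. At an unadjusted edgeR p below 0.05, 456 genes were higher (3.01%) and 346 lower (2.28%). In 263 genes (1.73%) all LKO libraries lay above all WT libraries, and in 177 genes (1.17%) all lay below, a description of the 4 against 4 libraries with no test. The median log2 fold change (LKO over WT, written log2FC from here on) of all genes was -0.00195. DESeq2, run on the same genes, called 63 (0.415%), of which 55 were higher and 8 lower in LKO. These 63 included all 8 edgeR calls, and 57 of them had groups without overlap. The 8 genes called by edgeR were Bst1, Itln1, Lyz1, Mmp7, the noncoding RNA AV064505, Cxcl9, Lpcat4 and the pseudogene Tmem181c-ps. The groups did not overlap in any of the 8, and 1 of them, Bst1, passed a log2FC of 1. The number of calls was 5 without WT replicate 1, 29 without WT replicate 4 and 13 without LKO replicate 2, and it was 3, of which Bst1 and Itln1 were among the 8, with the title number as a covariate, where the other 6 calls were lost.

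**Figure D2:**
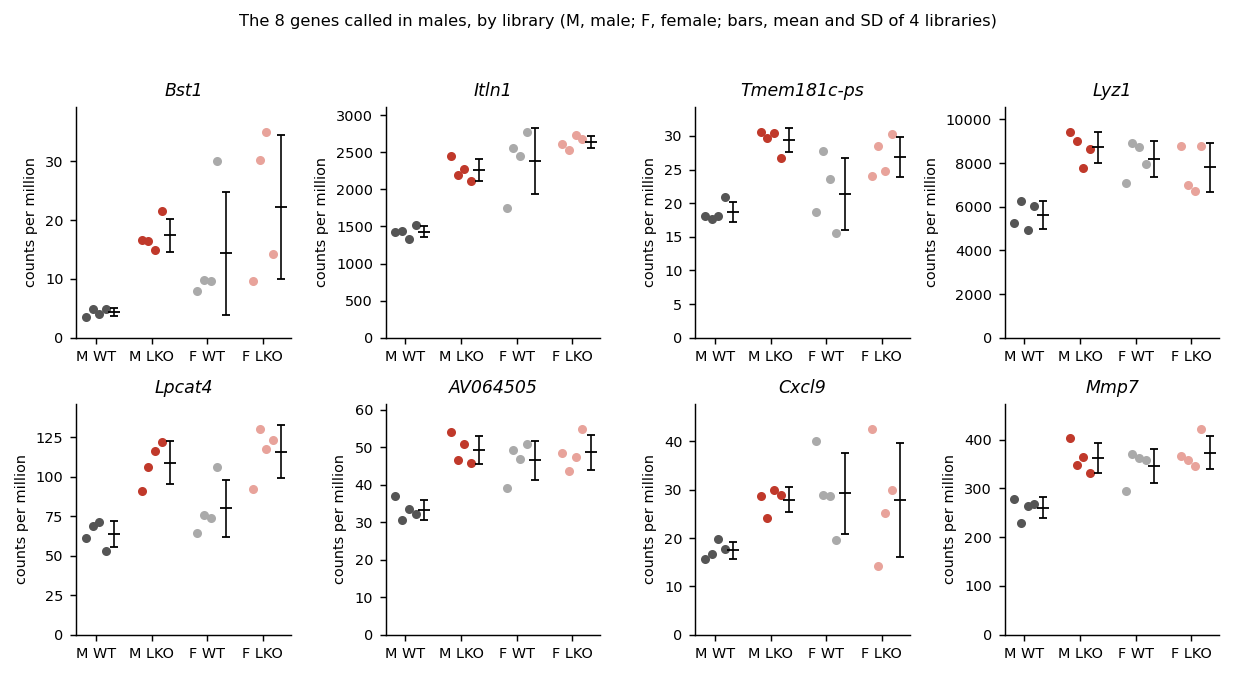
CPM (y axis, from 0) of the 8 called genes in each library of the WT and LKO groups, males first and then females (x axis), with the mean and SD of the 4 libraries at the right of each group; males and females were scaled separately. In males every LKO library lies above every WT library for each gene, and in females the genotypes overlap for each gene.

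Among the 8 calls the largest change belonged to Bst1 (NM_009763, chr5:43818893-43843468, mm10), which encodes CD157, a membrane-anchored enzyme that converts NAD into cyclic ADP-ribose and that is known in the mouse crypt as a Paneth cell product. Bst1 stood at 3.52, 4.87, 4.08 and 4.95 CPM in WT and 16.7, 16.5, 14.9 and 21.5 CPM in LKO. The lowest LKO library was about 3 times the highest WT library, and the LKO libraries other than replicate 4 lay close together. Bst1 rose 4.01-fold, with a log2FC of 2.002 (SE 0.15, adjusted p 1.33e-05 by edgeR). Beside it on chromosome 5, the related gene Cd38, which encodes another enzyme that uses NAD, stood at 223, 173, 199.7 and 248 CPM in WT and 248, 177, 271 and 237 CPM in LKO, with overlapping groups. The log2FC values of Cc2d2a, Fbxl5, Cd38 and Fgfbp1, the 2 nearest tested genes on each side, were 0.10, 0.23, 0.15 and -0.07, and none was called. Of the 23 genes of NAD handling 1 was called by edgeR, Bst1, against 0.0527% of all genes. The list had a median of -0.03 with 8 members above 0 and 15 below. The female libraries held 16260774 to 18578366 counts, except LKO replicate 1 with 60324336. In females Bst1 stood at 7.91, 9.82, 9.61 and 29.99 CPM in female WT and 9.65, 30.2, 35.04 and 14.3 CPM in female LKO. The female groups overlapped and each held both low and high animals, with a log2FC of 0.61 (SE 0.62). When the male difference was fitted with all 16 libraries, whose spread includes those females, the edgeR adjusted p was 0.464 at a similar fold change.

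Members of the Paneth cell list, which does not hold Bst1, made up 3 of the 8 calls. Of the 23 genes of the Paneth cell list 20 were tested. By edgeR 3 were called, Itln1, Lyz1 and Mmp7, against 0.0527% of all genes. All LKO libraries lay above all WT libraries in 12 of the 20 genes, against 1.73% of all genes, and 0 lay below. At an unadjusted edgeR p below 0.05, 16 of the 20 were higher (3.01% of all genes) and 0 lower, and the median log2FC was 0.49. DESeq2 called 11 of them, against 0.415% of all genes. The summed level was 17768, 19588, 17011 and 18191 CPM in WT and 30009.5, 25581, 23333 and 25841 CPM in LKO. Every LKO library exceeded every WT library in this sum, and LKO replicate 1 was the highest. With any 1 of the 8 libraries left out, 14 to 16 of the 20 genes had an unadjusted edgeR p below 0.05, all of them higher.

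Itln1 (NM_010584, chr1:171518124-171535294), which encodes intelectin 1, a secreted lectin that binds microbial sugars, stood at 1424, 1444, 1333 and 1513 CPM in WT and 2454, 2196, 2272 and 2118 CPM in LKO. The groups were far apart, and within each group the libraries lay close together. The log2FC was 0.66 (SE 0.069, adjusted p 0.000609 by edgeR), and Itln1 was called in all 17 alternative fits. Lyz1 (NM_013590, chr10:117287795-117292868), the lysozyme of Paneth cells, stood at 5265, 6264, 4913 and 6039.5 CPM in WT and 9437, 9036, 7777 and 8666 CPM in LKO. All 4 LKO libraries were above the WT libraries, of which replicates 2 and 4 were the higher. The log2FC was 0.64 (SE 0.086, adjusted p 0.00890 by edgeR), with an edgeR adjusted p of 0.0766 without WT replicate 1. Mmp7 (NM_010810, chr9:7692090-7699585), matrilysin, the protease that activates the alpha-defensins of the mouse, stood at 279, 229.8, 263 and 269 CPM in WT and 403, 347, 364 and 332 CPM in LKO. The groups did not overlap, and LKO replicate 1 was again the highest. The log2FC of 0.47 (SE 0.079, adjusted p 0.0442 by edgeR) was the call closest to the threshold, and Mmp7 was called in 8 of 17 alternative fits, with a log2FC between 0.42 and 0.62.

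AV064505 (NR_126562, chr9:7669429-7695631) is a noncoding RNA on the opposite strand whose interval overlaps the start of Mmp7. It stood at 36.9, 30.7, 33.7 and 32.3 CPM in WT and 54.1, 46.6, 50.8 and 45.8 CPM in LKO, again without overlap. Its log2FC was 0.56 (SE 0.081, adjusted p 0.0106 by edgeR). The strand option of the counting was not given in the sources used here, so reads from Mmp7 and from AV064505 cannot be told apart with certainty.

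The alpha-defensins, small antimicrobial peptides stored in Paneth cell granules, made up 12 of the 20 tested genes. Defa21 stood at 1073, 1398, 1079 and 1274 CPM in WT and 2173, 1787, 1546 and 1861 CPM in LKO. The groups did not overlap, and the log2FC was 0.61 (SE 0.11, adjusted p 0.0669 by edgeR). Defa5 stood at 76.3, 79.00, 64.7 and 94.5 CPM in WT and 121, 139, 144 and 108 CPM in LKO, with a log2FC of 0.70 (SE 0.12, DESeq2 adjusted p 1.05e-05). For Defa24 the levels were 4433, 4569.6, 4157 and 4958 CPM in WT and 6783, 6492, 5746 and 5232 CPM in LKO, again without overlap, with a log2FC of 0.42 (SE 0.085). The interval of Defa24 contains that of Defa6 on the same strand, so reads of these 2 genes cannot be told apart with certainty. Defa26, Defa3 and Defa17 also had groups without overlap, with log2FC values of 0.53, 0.49 and 0.38. Not all members separated the genotypes. Defa22 stood at 1094, 1330.2, 1101 and 767 CPM in WT and 2106, 1071, 926 and 1896 CPM in LKO, and Defa30 at 1908, 1852, 1785 and 929 CPM in WT and 2701, 1321, 1458 and 2458 CPM in LKO. In both genes WT replicate 4 and LKO replicates 2 and 3 were the lowest libraries, so the split ran across the genotypes. Gm14851 had the same 3 lowest libraries (801, 969, 795 and 474 CPM in WT and 1313, 679, 503 and 1159 CPM in LKO), and the unadjusted edgeR p of these 3 genes were 0.186, 0.420 and 0.503. These defensin genes are near-identical copies on chromosome 8, reads that map to several places were dropped, and so their counts are uncertain.

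Without the alpha-defensins, a choice made after the data were seen, 8 genes remained on the list. Of these, 6 had all LKO libraries above all WT libraries (1.73% of all genes). At an unadjusted edgeR p below 0.05, 7 of the 8 were higher (3.01% of all genes), and the median log2FC was 0.47. Mptx2, a pentraxin of Paneth cells, stood at 395, 349.7, 465 and 563 CPM in WT and 887, 719, 986 and 615 CPM in LKO and had a log2FC of 0.86 (SE 0.19, DESeq2 adjusted p 0.0184). Ang4, a microbicidal ribonuclease, stood at 494, 464, 450.2 and 569.7 CPM in WT and 600.4, 886, 625 and 589.6 CPM in LKO. Its groups did not overlap, although LKO replicate 2 alone was clearly higher, and its log2FC was 0.45 (SE 0.13). Pla2g2a, a secreted phospholipase that attacks bacterial membranes, had a log2FC of 0.45 (SE 0.09) without overlap, while Habp2 (0.46, SE 0.12) overlapped. Mptx1 stood near 1 CPM in both groups, with a log2FC of -0.06 (SE 0.41).

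**Figure D3:**
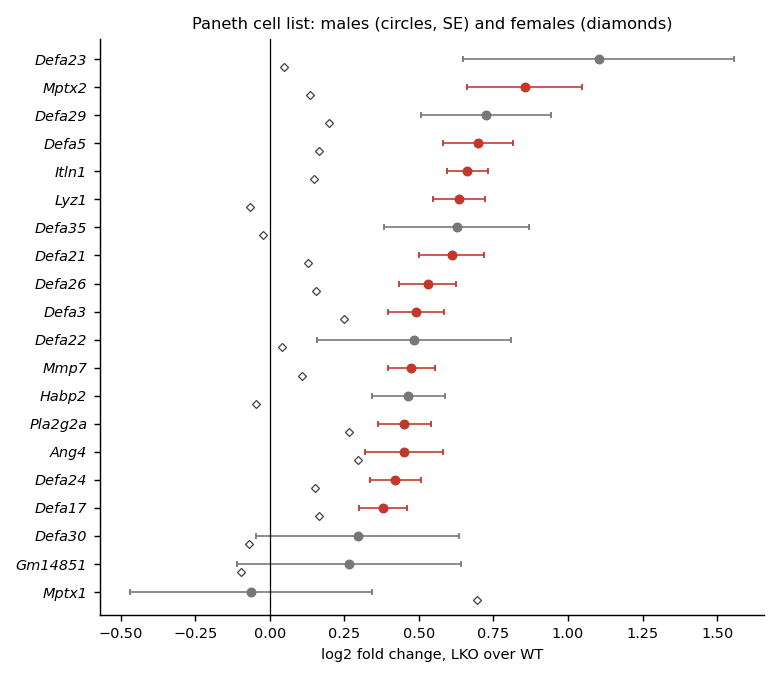
Log2 fold change, LKO over WT (x axis), of the 20 tested genes of the Paneth cell list (y axis): circles with SE bars are males, red where all 4 LKO libraries lie above all 4 WT libraries and grey where they overlap, and open diamonds are females. In males 19 of the 20 circles lie above 0, with a median of 0.49, and the female median is 0.14.

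The same genes were read in the female animals, which share no library with the males. Itln1 stood at 1752, 2555, 2449 and 2776 CPM in female WT and 2615, 2531, 2726 and 2681 CPM in female LKO, and Lyz1 at 7107, 8940.0, 8727 and 7956 CPM in female WT and 8772, 7005, 6705 and 8783 CPM in female LKO. For both genes the female groups overlapped, and all 8 female libraries, which were scaled apart from the males, lay above the highest male WT library. The female log2FC values were 0.15 (SE 0.12) for Itln1, -0.07 (SE 0.11) for Lyz1 and 0.11 (SE 0.085) for Mmp7. In females 15 of 20 members were above 0, with a median of 0.14. The difference between the male and the female genotype effect, tested as an interaction, had an unadjusted edgeR p of 0.000141 for Lyz1, 0.00172 for Itln1 and 0.00724 for Mmp7. These genes were chosen by their male difference, and the interaction uses the same male libraries, so these p-values are not independent of that choice. None of 15598 genes passed the interaction test after adjustment (smallest edgeR adjusted p 0.845), against 879 at an unadjusted p below 0.05 and 0 by DESeq2.

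The promoters of Paneth cell genes that rose or stood apart together are shown so that shared letters can be read. Each run is the 250 bases before the annotated start, 5′ to 3′ on the strand of the gene, from RefSeq on GRCm38.p6, the assembly that mm10 names. Capitals mark matches, on either strand, to 4 short motifs. TATAAA is the core promoter box that places the start of transcription. The TCF factors of the Wnt pathway bind the letters CTTTGAT. Both STAT factors and BCL6 bind the core TTCNNNGAA. Interferon-stimulated response elements hold GAAANNGAA as their core. No match overlaps another in these runs. The intervals are chr1:171535295-171535544, minus strand for Itln1, chr10:117292869-117293118, minus strand for Lyz1, chr9:7691840-7692089, plus strand for Mmp7 and chr8:21025295-21025544, plus strand for Defa21.
Itln1: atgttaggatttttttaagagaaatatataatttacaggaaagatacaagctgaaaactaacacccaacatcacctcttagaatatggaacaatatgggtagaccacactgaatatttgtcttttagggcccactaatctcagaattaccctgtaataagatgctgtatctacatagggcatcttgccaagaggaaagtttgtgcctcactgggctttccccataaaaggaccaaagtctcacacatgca
Lyz1: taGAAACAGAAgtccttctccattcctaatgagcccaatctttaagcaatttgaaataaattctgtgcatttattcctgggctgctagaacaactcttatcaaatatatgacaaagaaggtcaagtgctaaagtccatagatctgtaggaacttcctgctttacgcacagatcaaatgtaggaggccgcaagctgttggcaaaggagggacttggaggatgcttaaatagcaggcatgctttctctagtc
Mmp7: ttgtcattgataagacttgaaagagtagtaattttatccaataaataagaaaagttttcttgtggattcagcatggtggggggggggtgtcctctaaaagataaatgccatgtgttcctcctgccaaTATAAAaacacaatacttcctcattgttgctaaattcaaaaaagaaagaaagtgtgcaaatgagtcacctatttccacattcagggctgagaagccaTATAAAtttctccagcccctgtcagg
Defa21: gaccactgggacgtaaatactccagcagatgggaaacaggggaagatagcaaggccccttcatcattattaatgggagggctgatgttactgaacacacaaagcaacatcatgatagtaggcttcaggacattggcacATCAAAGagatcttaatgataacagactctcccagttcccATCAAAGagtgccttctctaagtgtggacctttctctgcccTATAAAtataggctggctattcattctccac
Of the 8 called genes 5 had an entry in the promoter table, and those of Bst1, Tmem181c-ps and AV064505 are not shown. Defa21 held CTTTGAT at 2 places on the reverse strand and 1 TATAAA, which begins 31 bases before the start. Mmp7 held TATAAA at 2 places, 26 and 123 bases before the start. Lyz1 held a single GAAANNGAA, and Itln1 held none of the 4 motifs in this window. Among the 12 Paneth cell genes whose window could be matched, 5 held CTTTGAT, all of them alpha-defensins, a family of close copies, against 2.37% of the 10513 tested genes with a window and 3.21% of all 32851 windows. TATAAA was present in 7 of the 12, against 6.73% of the tested genes and 12.4% of all windows. These 7 were the same 5 alpha-defensins, again close copies, with Mmp7 and Mptx1. TTCNNNGAA was present in 1 of the 12, against 5.99% and 7.02%. Such a match is a description of the letters and not a binding site.

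The chemokine genes Cxcl9 and Cxcl10 encode ligands of the receptor CXCR3 and are induced by interferon gamma. Cxcl9 (NM_008599, chr5:92321331-92328079) stood at 15.7, 16.8, 19.8 and 17.7 CPM in WT and 28.7, 24.2, 29.96 and 28.96 CPM in LKO. All LKO libraries were above all WT libraries, and LKO replicate 2 was the lowest of its group. Cxcl9 rose 1.597-fold, with a log2FC of 0.68 (SE 0.098, adjusted p 0.0106 by edgeR), and the edgeR adjusted p was 0.0766 without WT replicate 1 and 0.863 in the fit of all 16 libraries. Cxcl10 (NM_021274, chr5:92346639-92348889), which lies beside it, stood at 5.302, 4.99, 5.84 and 6.45 CPM in WT and 10.3, 7.64, 10.4 and 10.7 CPM in LKO, also without overlap and with LKO replicate 2 lowest. Its log2FC was 0.79 (SE 0.14, adjusted p 0.0669 by edgeR), and DESeq2 called it (adjusted p 0.000665). Cxcl10 lies inside the interval of Art3 on the opposite strand, and Art3 had a log2FC of -0.07 (SE 0.12). Naaa and Sdad1, next to Cxcl9 on the other side, had values of 0.05 and -0.04.

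The upstream windows of this pair are shown because both genes answer to interferon, with intervals chr5:92328080-92328329, minus strand for Cxcl9 and chr5:92348890-92349139, minus strand for Cxcl10, and capitals as above.
Cxcl9: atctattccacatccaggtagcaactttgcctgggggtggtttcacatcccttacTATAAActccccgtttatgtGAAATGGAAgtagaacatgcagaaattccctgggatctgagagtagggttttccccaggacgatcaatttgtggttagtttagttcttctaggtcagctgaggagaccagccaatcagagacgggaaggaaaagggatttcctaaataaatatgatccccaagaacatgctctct
Cxcl10: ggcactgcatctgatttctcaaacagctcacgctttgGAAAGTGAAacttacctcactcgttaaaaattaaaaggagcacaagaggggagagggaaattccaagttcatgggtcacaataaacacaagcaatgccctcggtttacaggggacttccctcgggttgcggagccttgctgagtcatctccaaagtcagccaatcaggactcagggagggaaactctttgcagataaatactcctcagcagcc
Cxcl9 held 1 GAAANNGAA, which begins 175 bases before the start, and 1 TATAAA. Cxcl10 held 1 GAAANNGAA, which begins 213 bases before the start. This motif was found in 6.49% of the windows of tested genes and in 7.13% of all windows.

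The rest of the interferon list was not called. Of 31 members, 1 was called by edgeR (Cxcl9, against 0.0527% of all genes), and 2 had groups without overlap (Cxcl9 and Cxcl10, against 1.73%). At an unadjusted edgeR p below 0.05, 5 were higher (3.01% of all genes), and the median log2FC was 0.04. Gbp2 and Iigp1, GTPases induced by interferon gamma, had log2FC values of 0.44 (SE 0.14) and 0.41 (SE 0.13), and their groups overlapped. The summed level of the list was 1815 to 2369 CPM in the WT libraries and 2068 to 2365 CPM in the LKO libraries. In females Cxcl9 stood at 40.1, 28.8, 28.7 and 19.6 CPM in female WT and 42.6, 14.2, 25.2 and 29.9 CPM in female LKO, a log2FC of -0.04 (SE 0.36) with wide overlap. The interaction, which uses the same male libraries by which these genes were chosen, had an unadjusted edgeR p of 0.0855 for Cxcl9 and 0.0202 for Cxcl10.

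Lpcat4 (NM_207206, chr2:112239841-112247111) encodes a lysophospholipid acyltransferase, an enzyme that puts a fatty acid back onto a lysophospholipid of the membrane. It stood at 61.4, 68.8, 71.2 and 53.04 CPM in WT and 91.1, 106, 116 and 122 CPM in LKO. The groups did not overlap, with LKO replicate 1 lowest among the LKO libraries. Lpcat4 rose 1.71-fold, with a log2FC of 0.78 (SE 0.10, adjusted p 0.0106 by edgeR). Besides the fit with the title number, the call was lost without WT replicate 1 (edgeR adjusted p 0.0932), without LKO replicate 3 (0.0539) and in the fit of all 16 libraries (0.151). The other tested genes of phospholipid remodelling were not called, and the list of 20 had a median log2FC of 0.01. Lpcat1 and Lpcat3, which also encode lysophospholipid acyltransferases, had values of -0.17 (SE 0.15) and 0.09 (SE 0.066), both with overlapping groups. In females Lpcat4 stood at 64.2, 75.7, 73.9 and 106 CPM in female WT and 92.3, 130.4, 118 and 123 CPM in female LKO, a log2FC of 0.53 (SE 0.17), and the groups overlapped in that female WT replicate 4 lay above LKO replicate 1 and below the other LKO animals. Tmem181c-ps (NR_028305, chr17:6610103-6620925) is a pseudogene with close copies, and its count is therefore uncertain. It stood at 18.04, 17.6, 18.1 and 20.9 CPM in WT and 30.6, 29.6, 30.5 and 26.8 CPM in LKO, without overlap, a log2FC of 0.65 (SE 0.086, adjusted p 0.00864 by edgeR).

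The next genes in the order of p included Mmp10 and Abhd6. Mmp10 (NM_019471, chr9:7502342-7510242), the matrix metalloproteinase stromelysin 2, stood at 22.2, 20.6, 20.01 and 18.8 CPM in WT and 30.3, 25.6, 29.9 and 32.7 CPM in LKO. All LKO libraries were higher, and the log2FC of 0.54 (SE 0.091, adjusted p 0.0501 by edgeR) did not pass the threshold, while DESeq2 called it (adjusted p 0.000396). Abhd6, a monoacylglycerol lipase, stood at 61.6, 63.4, 64.8 and 58.9 CPM in WT and 80.5, 77.1, 77.2 and 89.1 CPM in LKO, with a log2FC of 0.38 (SE 0.067, adjusted p 0.0619 by edgeR). In females its log2FC was 0.32 (SE 0.12).

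No gene was called lower by edgeR in males, against 346 at an unadjusted p below 0.05, and DESeq2 called 8 lower. Akr1c14 (NM_134072, chr13:4059591-4090422), an aldo-keto reductase that acts on steroids, stood at 66.95, 70.8, 60.2 and 63.98 CPM in WT and 42.3, 47.1, 29.3 and 40.7 CPM in LKO. All LKO libraries lay below all WT libraries, with LKO replicate 3 the lowest. The log2FC was -0.72 (SE 0.12, adjusted p 0.0619 by edgeR), and DESeq2 gave an adjusted p of 1.3e-05. Its neighbours in the steroid and retinoid list, Akr1c13 and Akr1c12, had log2FC values of -0.30 (SE 0.095) and -0.20 (SE 0.07), the latter without overlap. Of the 20 genes of that list 6 were above 0 and 14 below. At an unadjusted edgeR p below 0.05, 1 was higher (3.01% of all genes) and 3 lower (2.28%). The list median was -0.11, and 0.015 with the title number as a covariate. Esrrg (NM_011935, chr1:187997827-188214884), the estrogen-related receptor gamma, stood at 7.38, 7.49, 6.62 and 4.599 CPM in WT and 3.43, 3.17, 3.46 and 2.34 CPM in LKO. WT replicate 4 was the lowest WT library and still above every LKO library. The log2FC was -1.07 (SE 0.19, adjusted p 0.0619 by edgeR), with a DESeq2 adjusted p of 0.000402, and the remaining genes of the ERR and PGC1 list had no common direction, with Ppargc1b at 0.38 (SE 0.12), Ppargc1a at -0.31 (SE 0.13) and a median of 0.01 over 13 genes. In females the log2FC was -0.85 (SE 0.10) for Akr1c14 and -1.14 (SE 0.19) for Esrrg. Of the 15298 genes tested in females 6 (0.0392%) were called by edgeR, Akr1c14 among them.

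Txnip, which encodes the thioredoxin-interacting protein, and Gm15441, a noncoding RNA on the opposite strand of the same place on chromosome 3, were both lower in LKO. Txnip stood at 579.8, 662, 697 and 598 CPM in WT and 525, 457, 519.6 and 468 CPM in LKO, and Gm15441 at 112, 120.5, 133 and 117 CPM in WT and 99.6, 86.2, 95.4 and 86.9 CPM in LKO. Neither gene's groups overlapped. The log2FC values were -0.37 (SE 0.076) and -0.39 (SE 0.072), with DESeq2 adjusted p of 0.00373 and 0.00156, and without a stated strand option their reads cannot be told apart with certainty. The other genes that DESeq2 called lower were Fmo1, Cyp1b1, Gzma and 5830444B04Rik. Fmo1, a flavin-containing monooxygenase, stood at 7.48, 5.304, 3.36 and 7.05 CPM in WT and 3.13, 3.29, 2.37 and 2.39 CPM in LKO, and Cyp1b1, a cytochrome P450, at 10.1, 9.55, 8.65 and 11.4 CPM in WT and 7.79, 6.47, 6.41 and 6.26 CPM in LKO. Both are low genes, with log2FC values of -1.06 (SE 0.23) and -0.56 (SE 0.13), and for 5830444B04Rik it was -0.84 (SE 0.19). Among lower genes without overlap that neither test called were Cdc42ep2 (-0.32, SE 0.076), Ifitm1 (-0.35, SE 0.094) and the receptor phosphatase gene Ptprj (-0.25, SE 0.068).

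Genes of fatty acid oxidation had log2FC values above 0 in 20 of the 23 tested, against 49.2% of all genes. Mitochondria take up long-chain fatty acids through CPT1 and CPT2 and shorten them by beta-oxidation, and the nuclear receptor PPARα drives many of these genes. Of 23 tested members 0 were called by edgeR and 4 by DESeq2, which called 0.415% of all genes. All LKO libraries lay above all WT libraries in 6 members (1.73% of all genes) and below in 0. At an unadjusted edgeR p below 0.05, 13 were higher (3.01% of all genes) and 1 lower (2.28%), with a median log2FC of 0.27. With 1 library left out, the number higher ran from 8 (without LKO replicate 4) to 15 (without LKO replicate 3). The summed level was 2188, 2171, 2331 and 2029.7 CPM in WT and 2495, 2598, 2504 and 2807 CPM in LKO, without overlap.

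Acadl, the long-chain acyl-CoA dehydrogenase, stood at 125, 112, 152 and 131 CPM in WT and 167, 171, 204 and 201 CPM in LKO. The groups did not overlap, and the log2FC was 0.51 (SE 0.095, adjusted p 0.0669 by edgeR), with a DESeq2 adjusted p of 0.000665. Cpt1a, the gate of mitochondrial uptake, stood at 219, 228, 255 and 167 CPM in WT and 283, 299, 284 and 378 CPM in LKO, with WT replicate 4 lowest and LKO replicate 4 highest. Its log2FC was 0.52 (SE 0.13, DESeq2 adjusted p 0.0152). Cpt2 (0.31, SE 0.074), the carnitine carrier gene Slc25a20 (0.38, SE 0.082) and Hadha (0.27, SE 0.072), a subunit of the trifunctional protein, pointed the same way, and DESeq2 called Cpt2 and Slc25a20. Of these, Slc25a20 overlapped narrowly between the genotypes, and Acaa2 (0.31, SE 0.091) and Acot1 (0.86, SE 0.23), a thiolase and an acyl-CoA thioesterase, did not overlap. Angptl4, an inhibitor of lipoprotein lipase and a PPAR target, stood at 44.8, 33.3, 35.1 and 16.5 CPM in WT and 20.8, 15.6, 30.9 and 10.7 CPM in LKO, and Acsl1, an acyl-CoA synthetase, had a log2FC of -0.20 (SE 0.081), both with overlapping groups. In females 18 of 23 members were above 0, with a median of 0.22, and 1 member, Acadl, was called by edgeR. Its female log2FC was 0.37 (SE 0.055, adjusted p 0.0431 by edgeR).

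Genes of cholesterol synthesis lay slightly lower in LKO. The enzymes from acetyl-CoA to cholesterol are driven together by SREBP2, the transcription factor that is activated when sterols are scarce. Of 25 members 0 were called by edgeR and 0 by DESeq2, while 9 were lower at an unadjusted edgeR p below 0.05 (2.28% of all genes) and 0 higher. With 1 library left out that number ran from 8 to 13. Log2FC values were below 0 in 23 of 25 members, while 49.2% of all genes were above 0, and the median was -0.14. In 2 members all LKO libraries lay below all WT libraries, against 1.17% of all genes. Acat2, which condenses acetyl-CoA at the start of the pathway, stood at 45.8, 37.6, 38.4 and 37.1 CPM in WT and 32.02, 27.04, 36.2 and 30.3 CPM in LKO. WT replicate 1 was highest, and the log2FC was -0.34 (SE 0.097). Tm7sf2, a sterol reductase, stood at 53.4, 50.3, 48.7 and 47.3 CPM in WT and 45.1, 40.1, 44.4 and 38.1 CPM in LKO, a log2FC of -0.25 (SE 0.076). For Nsdhl and Fdps it was -0.27 (SE 0.079) and -0.27 (SE 0.083), each with overlapping groups. In females 0 of 25 members were above 0, and the median was -0.22.

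**Figure D4:**
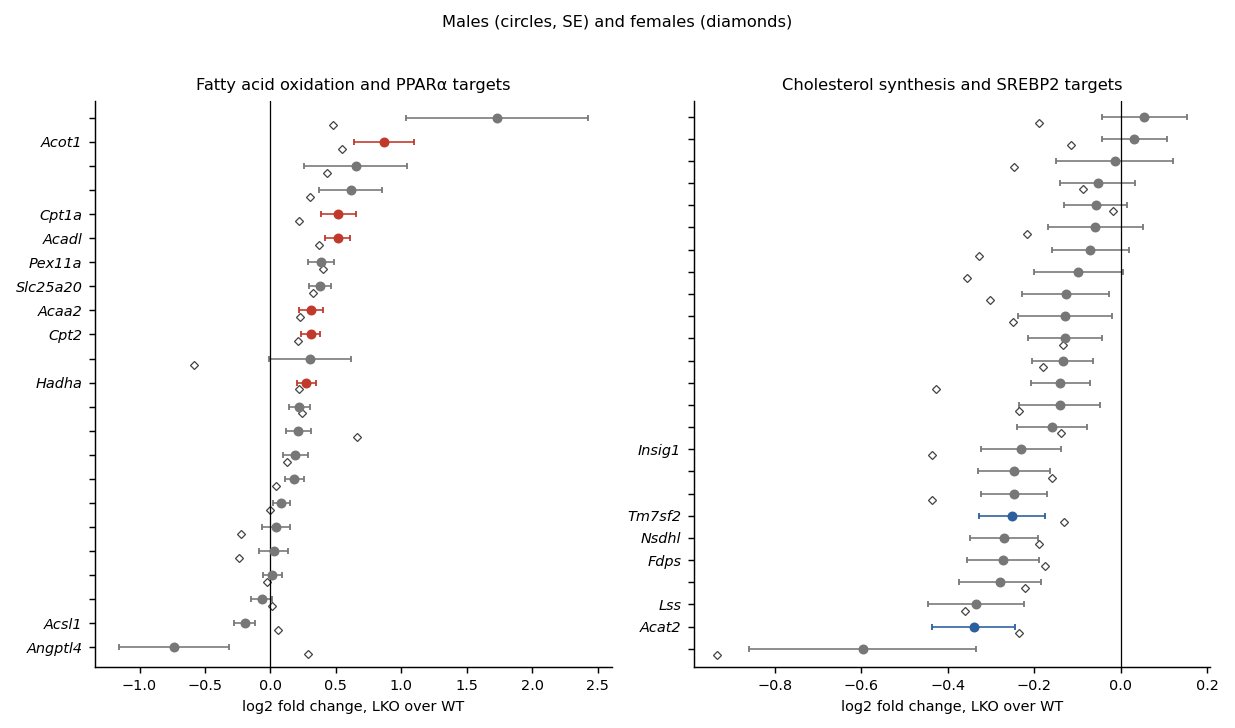
Log2 fold change, LKO over WT (x axis), of the tested members of 2 lipid lists (y axis): circles with SE bars are males, red where all LKO libraries lie above all WT libraries, blue where all lie below and grey where they overlap, and open diamonds are females, with names for the genes named in the text or in the account of the processing. At the left 20 of 23 members of fatty acid oxidation lie above 0 in males, and at the right 23 of 25 members of cholesterol synthesis lie below 0.

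The ileal FXR targets read the bile acid signal. Fgf15 stood at 1.68, 15.9, 4.47 and 1.75 CPM in WT and 32.7, 34.3, 26.7 and 54.1 CPM in LKO, a difference of 2.69 (SE 0.73) on the log2 scale with an edgeR adjusted p of 0.656. Its adjusted p was 0.106 by DESeq2 and 0.113 in the non-robust edgeR fit. No LKO library was as low as a WT library, but the WT libraries differed widely among themselves, and WT replicate 2, the library with the B cell markers, was the highest of them. Without WT replicate 2 the log2FC of Fgf15 was 3.83 (edgeR adjusted p 0.154). Fabp6, the ileal bile acid-binding protein, stood at 2937, 3557, 2824 and 2621 CPM in WT and 3741, 3789, 3882 and 4136 CPM in LKO, without overlap, and DESeq2 called it (adjusted p 0.0136), as edgeR did without WT replicate 2 (adjusted p 0.0335). The subunits of the basolateral bile acid exporter, Slc51b and Slc51a, had log2FC values of 0.32 (SE 0.092) and 0.28 (SE 0.12) with overlapping groups, and Nr1h4, which encodes FXR, had 0.05 (SE 0.093). Over the 11 tested genes of bile acid handling 0 were called by edgeR and 1 by DESeq2, 4 were higher at an unadjusted p below 0.05 (3.01% of all genes), and the median log2FC was 0.05. Nr0b2, which encodes the FXR-induced repressor SHP, did not exceed 1 count in any of the 8 libraries.

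The T cell and the B cell lists had medians below 0, while the plasma cell list had one of 0.02. T cell and intraepithelial lymphocyte genes summed to 272, 437, 409 and 338 CPM in WT and 276, 289, 281 and 318 CPM in LKO. WT replicate 1 was the lowest library in this sum, and the other WT libraries lay above all LKO libraries. Gzma, granzyme A of cytotoxic lymphocytes, stood at 67.2, 111, 98.3 and 84.6 CPM in WT and 60.01, 55.02, 59.9 and 66.4 CPM in LKO. WT replicate 1 lay just above the highest LKO library and the other WT libraries far above. The log2FC was -0.58 (SE 0.13), with an edgeR adjusted p of 0.311 and a DESeq2 adjusted p of 0.00409. Of 24 T cell and intraepithelial lymphocyte genes 5 were lower at an unadjusted edgeR p below 0.05, against 2.28% of all genes, with a median of -0.19. With 1 library left out this number ran from 1 to 8. Cd8a, Cd3g and Ccl5 had log2FC values of -0.33 (SE 0.13), -0.36 (SE 0.15) and -0.53 (SE 0.21), with overlapping groups, and in these genes WT replicate 1 was as low as the LKO libraries. All 13 tested B cell and follicle genes were below 0, with a median of -0.85, but this rested on WT replicate 2. Ms4a1, which encodes CD20, stood at 1.04, 13.7, 0.606 and 0.4999 CPM in WT and 0.745, 0.353, 0.924 and 0.967 CPM in LKO, and Tnfrsf13c at 1.44, 8.299, 2.04 and 1.600 CPM in WT and 1.64, 1.59, 0.924 and 1.17 CPM in LKO. Without WT replicate 2 the median of the list was 0.096. The MHC class II list had a median of -0.18, with Cd74, the invariant chain, at 2174, 2466, 2731 and 2418 CPM in WT and 2594, 2467, 1243 and 2524 CPM in LKO, where LKO replicate 3 alone was low.

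In other compartments of the epithelium edgeR called no gene. Of 21 crypt stem cell and Wnt target genes 0 were called by edgeR and 0 by DESeq2, 6 were higher at an unadjusted edgeR p below 0.05 (3.01% of all genes), and the median was 0.05. Myc stood at 35.9, 39.3, 40.1 and 38.2 CPM in WT and 43.8, 48.5, 46.3 and 58.1 CPM in LKO, without overlap and with a log2FC of 0.36 (SE 0.088). Rnf43, a Wnt feedback inhibitor, had 0.29 (SE 0.08) without overlap, Sox9 had 0.32 (SE 0.091) and the stem cell receptor gene Lgr5 had 0.22 (SE 0.084). None of 26 proliferation genes had an unadjusted edgeR p below 0.05 or was called, and the median was -9.42e-05. Goblet cell genes (18 tested) had a median of -0.04, enteroendocrine genes (17) one of -0.10 and tuft cell genes (15) one of -0.19. In these 3 lists 0 genes were called by edgeR. At an unadjusted edgeR p below 0.05, 1 goblet cell gene was higher (3.01% of all genes). By the same rule 1 enteroendocrine and 2 tuft cell genes were lower (2.28% of all genes).

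The lists of TNF signalling, epithelial defence, STAT5 signalling and fat digestion gave no edgeR call. Of 20 TNF and NF-kB response genes 5 were higher at an unadjusted edgeR p below 0.05 (3.01% of all genes) and 0 were called by edgeR and 0 by DESeq2, with a median of 0.13. Bcl3, an atypical IkB protein, had a log2FC of 0.34 (SE 0.099), and Socs3, a feedback inhibitor of cytokine signalling, stood at 49.9, 42.7, 60.9 and 62.03 CPM in WT and 65.3, 55.4, 122 and 120.4 CPM in LKO, so that its difference lay in LKO replicates 3 and 4. The epithelial antimicrobial list outside the Paneth cell had a median of 0.23 and 0 calls by edgeR. At an unadjusted edgeR p below 0.05, 1 of its genes was lower (2.28% of all genes) and 0 higher (3.01%). The sum of this list was highest in LKO replicate 3, at 56907 CPM. In the BCL6 and STAT5 list Stat3 had 0.15 (SE 0.06) without overlap, and Cish and Igf1, known STAT5 targets, had -0.33 (SE 0.13) and -0.35 (SE 0.16), with overlapping groups. Of the 14 genes of this list 5 were above 0 and 9 below, with a median of -0.04. At an unadjusted edgeR p below 0.05, 2 were higher (3.01% of all genes) and 2 lower (2.28%). Genes of fat digestion had a median of 0.03, with Clps, the cofactor of pancreatic lipase, at 59.8, 68.1, 59.04 and 72.6 CPM in WT and 97.1, 91.3, 74.8 and 81.9 CPM in LKO, and Agpat2, an acyltransferase of triglyceride synthesis, at 260.4, 235, 242 and 246 CPM in WT and 309, 291, 300.4 and 288 CPM in LKO. Neither gene's groups overlapped, and DESeq2 called both genes (adjusted p 0.0202 and 0.00373), while edgeR did not (0.165 and 0.177). Of 19 genes of serine and one-carbon metabolism and ATF4, Chac1, a glutathione-degrading enzyme of the ATF4 response, stood at 2.68, 1.44, 3.14 and 2.25 CPM in WT and 4.67, 5.41, 4.502 and 5.498 CPM in LKO, again without overlap. Its log2FC was 1.07 (SE 0.21, adjusted p 0.0848 by edgeR), DESeq2 called it (adjusted p 0.00156), and the list had a median of 0.04. Xenobiotic metabolism had 4 of 22 genes lower at an unadjusted edgeR p below 0.05 (2.28% of all genes), 0 called and a median of -0.07, while of the 19 clock genes 0 passed that p and the median was 0.03.

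**Figure D5:**
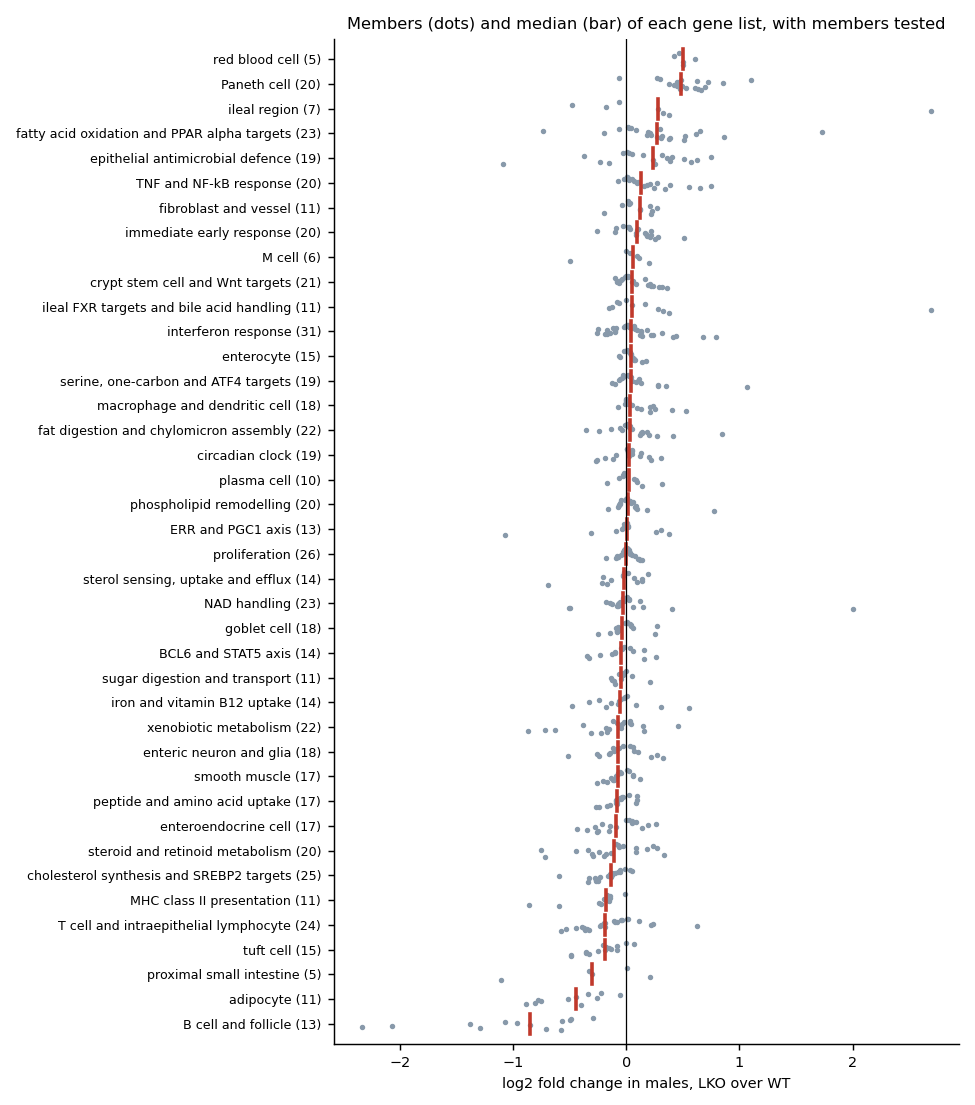
Log2 fold change in males, LKO over WT (x axis), of the members (dots) of each gene list with at least 5 tested members (y axis, number tested in parentheses), with the median as a red bar. The Paneth cell list has a median of 0.49, the fatty acid oxidation list 0.27 and the B cell list -0.85, which became 0.096 without WT replicate 2.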

How the data were processed

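RNA of 16 ileum samples (8 male, 8 female) had been sequenced by the authors as stranded poly(A) libraries, single-end. The deposited values are raw read counts per gene, which the authors made with STAR 2.5.2 and HOMER 4.10 on mm10 per the submitters' processing notes. The strand option of the counting and the annotation version were not given in the sources used here. Reads mapping to several places were dropped, which makes counts of near-identical genes uncertain. The comparison of 4 male LKO with 4 male WT samples used edgeR 4.0.16 in R 4.3.3 (filterByExpr, trimmed mean of M-values, robust quasi-likelihood test with Benjamini-Hochberg adjustment over all tested genes, threshold 0.05). The fit was run on counts simulated from its own fitted spread. Changes in them had an absolute log2FC of at least 1, so the smaller changes that most genes here show were not checked. Females were fitted apart in the same way, and the interaction in 1 fit of all 16. CPM values came from the same counts with a floor of 3 counts, and precision is limited by 4 samples a group and by depths of 15739601 to 20467119 counts per male sample. Of the per-sample columns 0 were left unused.

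DESeq2 1.42.0, other scalings, filters, a replicate block, the title number and leaving out each library served as alternatives. Within each group every pair of samples differed beyond counting noise. Samples with the same replicate number did not deviate together. Promoter windows came from RefSeq for GRCm38.p6. The comparison and the gene lists were chosen with earlier results of these data known. Named genes were those called by edgeR, the 12 higher and 12 lower genes with the smallest p among those without overlap and a mean of at least 1 CPM, those called lower and the 15 first called higher by DESeq2, up to 4 of each list described, the bile acid genes, Bcl6, and neighbours of Bst1 and Cxcl9. Of 108 genes reported, 28 were added after their values were seen, namely the remaining Paneth cell genes and Cpt1a, Hadha, Acot1, Acaa2, Angptl4, Acsl1, Lss, Insig1, Cd74, H2-Aa, Car1, Slc10a2, Socs3 and Chac1. A few genes that meet the rule are not reported here.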

Additional observations from a re-analysis of the deposited data

Results flagged for a closer look

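In 19 of 216 groups of 4 male libraries, for the genes named, 1 library lay so far from the other 3 that the gap exceeded Dixon's 95% critical value for 4 samples. Chance alone flags about 1 in 20 such groups.

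Of the genes that rose, Tmem181c-ps was set apart in WT, where replicate 4 stood at 20.9 CPM, nearest to the LKO libraries. Among Paneth cell genes, Defa30 stood at 929 CPM in WT replicate 4 and Ang4 at 886 CPM in LKO replicate 2. Within the LKO group Cxcl10 was lowest in replicate 2 at 7.64 CPM, and Cyp1b1 highest in replicate 1 at 7.79 CPM.

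Lymphoid genes set WT replicate 2 apart, with Ms4a1 at 13.7 CPM, Tnfrsf13c at 8.30 CPM and Spib, a transcription factor of B cells and M cells, at 21.0 CPM. Within the WT group, replicate 1 was lowest for Cd8a at 16.7 CPM, for the adhesion molecule gene Icam1 at 16.4 CPM and for Ppargc1b at 9.71 CPM, and highest for Acat2 at 45.8 CPM. The MHC class II genes Cd74 and H2-Aa were lowest in LKO replicate 3, at 1243 and 377 CPM.

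Car1 stood at 1136 CPM in LKO replicate 2. Among lipid genes, Cpt1a stood at 378 CPM in LKO replicate 4, Hsd17b13, a lipid droplet enzyme, at 9.98 CPM in the same library, and Lpcat3 at 244 CPM in WT replicate 4. Within LKO, Igf1 was highest in replicate 2, at 9.23 CPM.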

How the results depend on the processing

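The 8 calls became 63 with DESeq2, 25 with no filter on low counts, 16 with the replicate block, 4 with all 16 libraries in 1 fit (3 shared with the 8), 3 with the title number as a covariate and 1 with an absolute log2 fold change of at least 1 added. Other scalings and a filter of at least 10 counts in every library gave 8, and the non-robust fit 7. With 1 library left out the count ran from 5 (without WT replicate 1) to 29 (without WT replicate 4), and was 13 without LKO replicate 2. The causes were not tested. Same-numbered samples did not deviate together (correlations of -0.12 to 0.08), so the block holds no known pairing. The count of genes without overlap ran from 423 to 533. In females the 6 calls became 155 with DESeq2, 15 with the replicate block and 0 to 4 with 1 library left out. The interaction gave 0 calls under DESeq2 and 0 to 1 with 1 library left out (1 without female WT replicate 1).

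Of the changed values of named genes, 1725 kept direction and side of the threshold, 69 newly passed it (28 of these with DESeq2, 14 with no filter and 10 without WT replicate 4), 22 no longer passed it and 17 changed sign. With the title number the sign changed for Cc2d2a (-0.081), Mptx1 (0.64), Angptl4 (0.091), Car1 (-0.75) and Slc10a2 (0.25), and with the replicate block for Car1 (-3.31). With 1 library left out, log2FC ran from -2.72 to 0.066 for Ms4a1, -0.029 to 0.13 for Nr1h4, -0.096 to 0.0074 for Sdad1, -0.42 to 0.28 for Mptx1, -0.24 to 0.047 for Cd74, -5.31 to 1.496 for Car1 and -0.23 to 0.041 for Slc10a2. Medians of the gene lists stayed within the spread between replicates in 732 of the values and moved in 16, most with the title number, where the Paneth cell list had 0.63 and the fatty acid oxidation list 0.19.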

Other observations

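In several alpha-defensins the lowest and the highest libraries were shared and did not follow genotype. Defa22, Defa30 and Gm14851 were each lowest in WT replicate 4 and LKO replicates 2 and 3, and highest in LKO replicates 1 and 4. At Defa22 these 3 libraries stood at 767, 1071 and 926 CPM against 1896 to 2106 CPM in LKO replicates 1 and 4. No hypothesis was tested on this pattern.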
